A study of Mus musculus with 6 samples.

Results

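The small leucine-rich proteoglycans and the interstitial glycoproteins were followed in embryonic mouse dorsal pancreas with and without the gene Bicc1. The 10 genes were taken from a list of matrix genes by symbol: Dcn, Bgn, Lum, Fmod and Ogn, which encode leucine-rich proteoglycans, Vcan, which encodes a large hyaluronan-binding proteoglycan, and Fn1, Tnc, Postn and Sparc, which encode glycoproteins. All 10 of them were found among the 24389 genes of each library, and all 10 passed the filter on low values, Tnc only through its KO values. RNA libraries were sequenced from dorsal pancreata of embryos that lacked Bicc1 (knockout, KO, 3 libraries) and of wild-type embryos (WT, 3 libraries). All embryos were at E13.5 and had a mixed genetic background of C57BL/6 and ICR. The product of Bicc1, Bicaudal C1, binds RNA. The labels do not describe the KO allele, nor whether a library came from 1 embryo or from a pool, so the spread behind each p-value is that of the libraries and may in part be technical.

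The interstitial matrix is the loose network between cells that mesenchymal cells secrete. Small leucine-rich proteoglycans have a curved protein core that binds collagen fibrils and growth factors, and their loss in mice alters the width and packing of fibrils. Versican and hyaluronan keep the embryonic matrix hydrated, fibronectin is the adhesive glycoprotein on which cells and other matrix proteins assemble, and the matricellular proteins tenascin C, periostin and SPARC change how cells adhere to that matrix. In the embryonic pancreas the mesenchyme surrounds the branching epithelium and is its main source of such matrix.

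Bicc1 (ENSMUSG00000014329) had values of 3.96, 4.91 and 4.48 in KO 1, KO 2 and KO 3, against 19.7, 19.5 and 18.2 in WT 1, WT 2 and WT 3. On the scale of log2(value + 1), Bicc1 fell by 1.89 in KO (SE 0.09, limma adjusted p 0.00067). Values are those the authors deposited, whose unit is not stated. They look like a read density, so each gene is compared between libraries and levels of different genes are not compared. Depth is unknown. The tissue carried the markers of its label: the summed level of 13 of 13 mesenchyme markers was 754 to 814 in KO and 759 to 779 in WT, and that of 10 of 10 pancreatic epithelium markers was 488 to 734 in KO and 546 to 662 in WT. The largest contrast between libraries, the first principal component (57.3% of the variance), set KO 1, KO 2 and WT 3 (subset A) apart from KO 3, WT 1 and WT 2 (subset B). It moved with the GC content of genes, with Spearman's rho across genes of 0.50, 0.61 and 0.40 in subset A and -0.19, -0.56 and -0.66 in subset B. Both subsets hold both genotypes, so differences are also given within each of them. The KO libraries still had the higher component scores there: 0.29 and 0.58 against 0.26 in A, and -0.13 against -0.43 and -0.56 in B. Differences within a subset may therefore still carry part of this contrast. Of the 10 genes, Fn1 (-0.85) and Dcn (-0.77) had the strongest Pearson's r with the scores over the 6 libraries.

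None of the 10 genes passed limma at an adjusted p of 0.05 over all 13911 genes tested, where 2 genes (0.0144%) passed, both of them lower in KO. Within that limit, Dcn, Lum and Fn1 lay on the lower side in KO and Tnc on the higher side. The log2 differences of Bgn, Fmod and Ogn were small (-0.12, -0.14 and -0.06). That of Ogn changed sign in 4 of 17 alternatives of processing, and KO 1 was the lowest library in all 5 leucine-rich proteoglycans. All 5 leucine-rich proteoglycans and Fn1 had a lower mean in KO, and Tnc, Vcan, Postn and Sparc had a higher mean. Of all genes tested, 46.5% had a lower mean in KO and 53.5% a higher one. KO and WT values did not overlap in 5 of the 10 genes: the KO libraries were all under the WT libraries in Dcn, Bgn, Fmod and Fn1 and all above them in Tnc. Of all genes tested, 16.4% did not overlap, 8.77% below and 7.67% above. At an unadjusted p of 0.05, 4 of the 10 genes passed, beside 10.3% of all genes. Of these, Dcn, Lum and Fn1 were lower, as were 4.36% of all genes, and Tnc was higher, as were 5.89%. Tnc, which is in each of these counts, passed the filter on low values only through its KO values (WT mean 0.811). The median log2 difference was -0.09 over the 10 genes and 0.01 over all genes tested. These genes were listed with earlier results of these data known, so the counts describe them and test nothing.

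**Figure D1:**
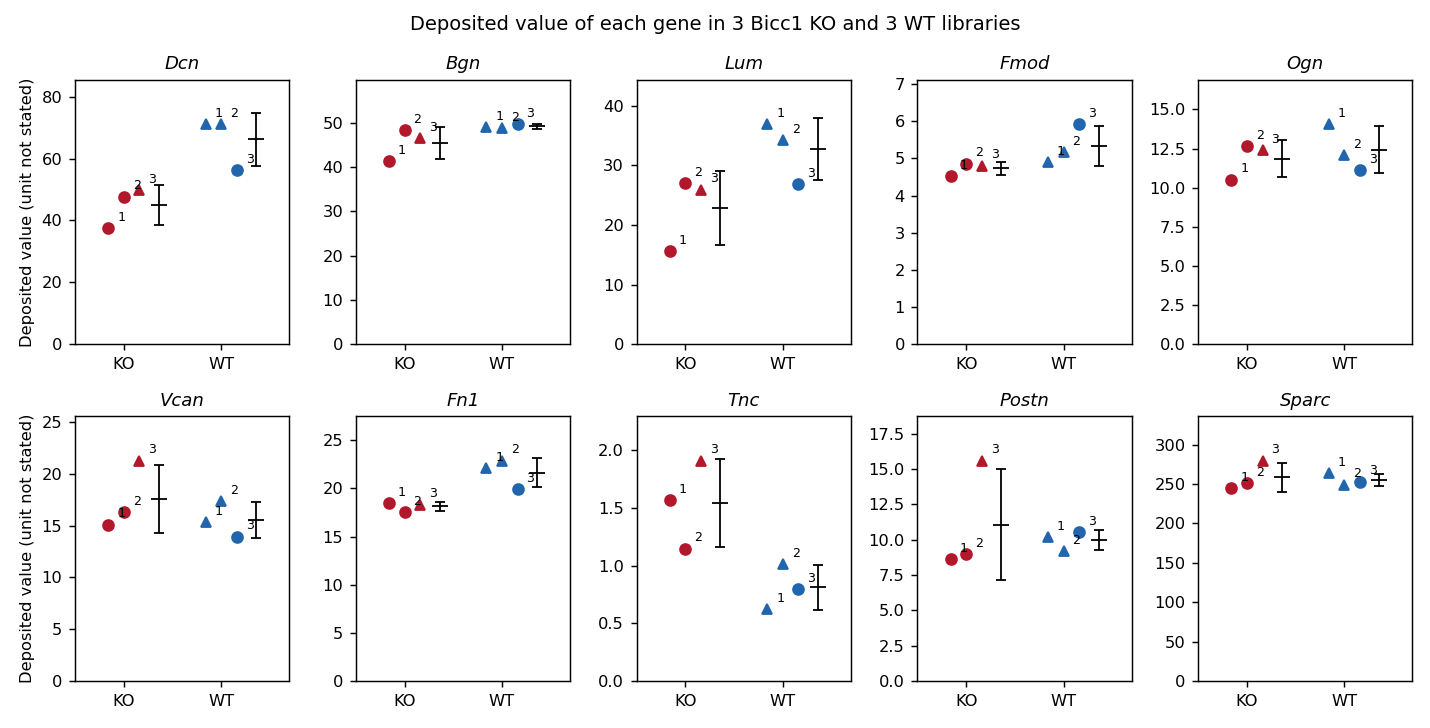
Deposited value (y axis, from 0, unit not stated) of each of the 10 genes in the 3 KO libraries (red, left) and the 3 WT libraries (blue, right), numbered by replicate. Circles are KO 1, KO 2 and WT 3, triangles are KO 3, WT 1 and WT 2, and black marks are the mean and SD of each group: all KO points lie below all WT points for Dcn, Bgn, Fmod and Fn1 and above them for Tnc.

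Promoter windows of RefSeq (build GRCm38.p6) were at hand for 7 of the 10 genes, Bgn, Fmod, Ogn, Vcan, Tnc, Postn and Sparc. Those of Bgn, Fmod and Tnc are shown because KO and WT values of these genes did not overlap. Each is the 250 bases before the annotated start, 5′ to 3′ on the strand of the gene, and for Tnc the start further along the gene was taken. Capitals mark matches, on either strand, to any of 6 motifs: the TATA motifs TATAAA and TATATAA, the GC box with GGGCGG, the CCAAT box, the AP-1 motif with TGANTCA and the TEAD motif with GGAATG.
Promoter of Tnc (chr4:64046937-64047186, minus strand): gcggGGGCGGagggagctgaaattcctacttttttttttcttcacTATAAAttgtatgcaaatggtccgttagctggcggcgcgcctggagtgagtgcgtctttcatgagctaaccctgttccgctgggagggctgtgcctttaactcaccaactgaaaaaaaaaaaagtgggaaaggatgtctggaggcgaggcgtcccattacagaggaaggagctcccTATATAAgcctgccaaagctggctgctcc
Promoter of Bgn (chrX:73483351-73483600, plus strand): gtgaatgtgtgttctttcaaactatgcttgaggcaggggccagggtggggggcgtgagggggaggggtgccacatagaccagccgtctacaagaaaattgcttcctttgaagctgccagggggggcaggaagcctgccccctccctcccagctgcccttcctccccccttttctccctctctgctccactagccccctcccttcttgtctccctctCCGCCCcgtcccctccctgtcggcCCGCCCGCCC
Promoter of Fmod (chr1:134037004-134037253, plus strand): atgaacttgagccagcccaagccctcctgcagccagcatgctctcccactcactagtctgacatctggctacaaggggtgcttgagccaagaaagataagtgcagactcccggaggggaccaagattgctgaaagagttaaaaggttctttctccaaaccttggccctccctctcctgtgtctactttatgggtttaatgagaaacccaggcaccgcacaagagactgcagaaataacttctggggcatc
The Tnc window holds TATATAA, beginning 29 bases before the start, as well as TATAAA at 205 and GGGCGG at 246 bases before it. The motif TATATAA occurs in 3.04% of 32851 windows of the same length. The other window of Tnc (chr4:64047016-64047265) holds no TATATAA, and its TATAAA begins 126 bases before its own start. Besides Tnc, TATATAA was found in Postn, in 1 of its windows, beginning 28 bases before the start, where a TATAAA beginning at 26 overlaps it. The Bgn window holds GGGCGG on the reverse strand at 34, 10 and 6 bases before the start, the last 2 of which overlap, a motif found in 32.7% of windows. In Fmod there was no match to any of the 6 motifs. Of the others, TATAAA occurs in 12.4% of windows, CCAAT in 33.8%, the AP-1 motif in 6.75% and the TEAD motif in 12.6%. A match describes the letters only, and binding of a factor was not measured.

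Decorin (Dcn, ENSMUSG00000019929), a class I leucine-rich proteoglycan that coats collagen fibrils and binds TGF-beta, showed the lowest log2 difference of the 10. The KO libraries 1 to 3 had values of 37.6, 47.7 and 49.8, against 71.2, 71.2 and 56.2 in WT 1, WT 2 and WT 3. The highest KO library lay below the lowest WT library, WT 3. Mean values were 45.0 ± 6.53 for KO and 66.2 ± 8.69 for WT (SD, n = 3 each), so KO held 68.0% of the level in WT. The log2 difference was -0.55 (SE 0.14, limma adjusted p 0.47), and over 17 alternatives it lay between -0.66 and -0.43, with adjusted p from 0.13 to 0.91. It was -0.40 in subset A and -0.51 in subset B. After a correction for GC content it was -0.44, and the groups still did not overlap.

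Lumican (Lum, ENSMUSG00000036446) is a class II proteoglycan with keratan sulfate chains that regulates fibril spacing. In the KO libraries 1 to 3 its values were 15.7, 27.0 and 25.9, against 37.0, 34.3 and 26.9 in WT 1, WT 2 and WT 3. KO 1 was far below the others, and KO 2 and WT 3 were nearly equal, so the groups just overlapped. Mean values were 22.9 ± 6.25 for KO and 32.7 ± 5.21 for WT (SD, n = 3 each), and KO held 69.9% of the level in WT. The log2 difference of -0.52 (SE 0.21, limma adjusted p 0.47) was -0.28 without KO 1, and it was -0.37 in subset A and -0.44 in subset B.

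Dcn and Lum are next to each other on chromosome 10, followed by Kera and Epyc, which belong to the same family. Their values moved together: over the 6 libraries Pearson's r between the log2 values of Dcn and Lum was 0.95, the highest of the 45 pairs among the 10 genes. This r is a description and carries no p, since the libraries differ in genotype and along the first component. Kera, the keratocan gene, had values of 0.208, 0.175 and 0.382 in KO and 0.193, 0.191 and 0.129 in WT. Epyc, the epiphycan gene, had 0.031, 0.037 and 0.049 in KO and 0.201, 0.155 and 0.046 in WT. Neither passed the filter on low values. Btg1, the nearest gene with a value on the other side of Dcn and no matrix gene, had 28.1, 25.8 and 32.3 in KO and 31.7, 31.9 and 28.8 in WT, with a log2 difference of -0.10 (SE 0.10). Bicc1 is also on chromosome 10, with 360 protein-coding genes between it and Dcn in the order of the RefSeq annotation. Linkage of the pair to the KO allele was not tested.

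Biglycan (Bgn, ENSMUSG00000031375), the X-linked class I relative of decorin, had values of 41.3, 48.3 and 46.5 in the KO libraries, against 48.9, 48.7 and 49.7 in the WT libraries. The groups did not overlap, but KO 2 was close to WT 2, and KO 1 was the low one. Mean values were 45.4 ± 3.60 for KO and 49.1 ± 0.537 for WT (SD, n = 3 each). Its log2 difference of -0.12 (SE 0.08, limma adjusted p 0.52) was -0.05 without KO 1.

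Fibromodulin (Fmod, ENSMUSG00000041559), a class II proteoglycan of collagen fibrils, had values of 4.53, 4.86 and 4.81 in KO and 4.89, 5.17 and 5.93 in WT. The lowest WT value, that of WT 1, was just above the highest KO value. Its log2 difference was -0.14 (SE 0.09, limma adjusted p 0.50), -0.07 without WT 3 and -0.25 after correction for GC content. Its neighbours on chromosome 1, Prelp and Optc, which are of the same family, were low in all libraries, with Prelp at 0.242 to 0.411 and Optc at 0.207 to 0.321.

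Osteoglycin, or mimecan (Ogn, ENSMUSG00000021390), a class III proteoglycan, did not share this separation. Its values were 10.5, 12.7 and 12.4 in KO and 14.1, 12.1 and 11.1 in WT, and the groups overlapped. The log2 difference of -0.06 (SE 0.11, limma adjusted p 0.81) was positive after GC correction (0.05), without KO 1 (0.02) and without WT 1 (0.03). Aspn, the asporin gene that stands near Ogn on chromosome 13, had 6.37, 8.83 and 8.53 in KO and 9.25, 7.80 and 7.43 in WT, with a log2 difference of -0.05 (SE 0.13). In all 5 leucine-rich proteoglycans KO 1 was the lowest of the 6 libraries. Their median log2 difference was -0.28 in subset A and -0.07 in subset B.

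**Figure D2:**
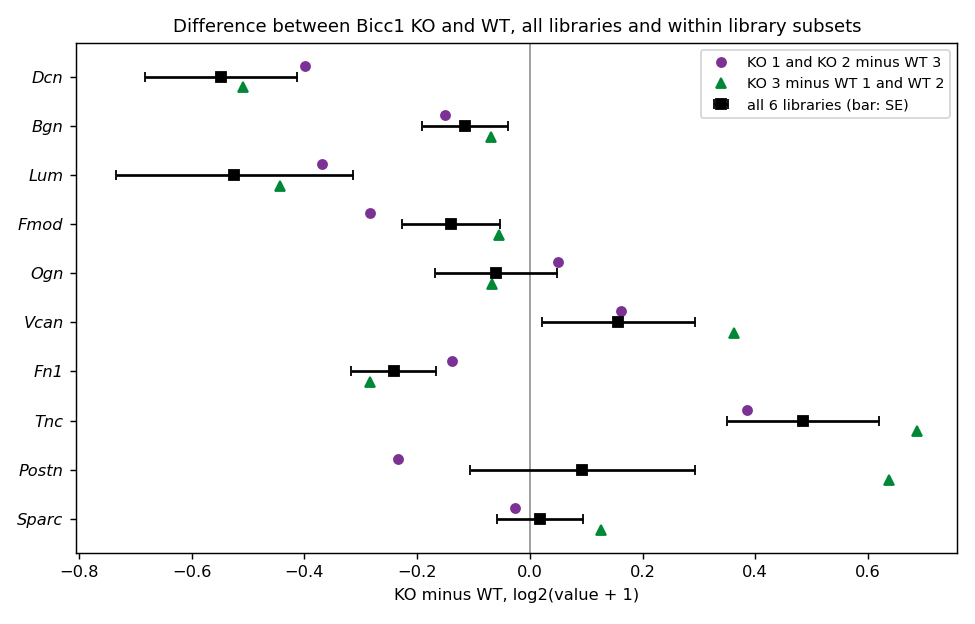
Difference between KO and WT on the log2(value + 1) scale (x axis) for each of the 10 genes (y axis), with squares and bars for the estimate and SE from all 6 libraries. Circles are the difference in subset A (KO 1 and KO 2 minus WT 3) and triangles that in subset B (KO 3 minus WT 1 and WT 2): both lie below 0 for Dcn, Bgn, Lum, Fmod and Fn1, both above 0 for Tnc and Vcan, and on opposite sides for Ogn, Postn and Sparc.

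Fibronectin (Fn1, ENSMUSG00000026193) was lower in KO with little spread among the KO libraries. These had values of 18.5, 17.6 and 18.3, against 22.1, 22.9 and 19.9 in WT 1, WT 2 and WT 3. The groups did not overlap, and WT 3 was the closest to the KO libraries. Mean values were 18.1 ± 0.489 for KO and 21.7 ± 1.54 for WT (SD, n = 3 each), and KO held 83.7% of the level in WT. The log2 difference of -0.24 (SE 0.07, limma adjusted p 0.47) stayed between -0.35 and -0.20 over the alternatives, with adjusted p from 0.14 to 0.91. It was -0.14 in subset A, -0.28 in subset B and -0.35 after GC correction. In the annotation 2.5% of the exonic bases of Fn1 are shared with exons of Apol7d, which is antisense to it, and libraries of this kit are unstranded.

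Of the receptors of fibronectin, Itga5, the alpha subunit of its classical integrin, lay on the other side. It averaged 10.5 ± 0.614 in the KO and 8.40 ± 0.794 in the WT libraries (SD, n = 3 each), with a log2 difference of 0.29 (SE 0.09, limma adjusted p 0.47), which was 0.09 after GC correction. Itgb5, a beta subunit that pairs with the alpha V chain, had 13.47, 14.1 and 12.3 in KO and 7.48, 8.37 and 10.8 in WT, with a log2 difference of 0.55 (SE 0.13, limma adjusted p 0.47), which was 0.36 after GC correction. In both genes the KO libraries were above the WT libraries without overlap, and for Itga5 this was lost after GC correction. Both were named for a low p in the list of receptors. Itgb1 and Itgav, the gene of the alpha V chain, did not share this. Their log2 differences were -0.02 (SE 0.08) and -0.13 (SE 0.10), with overlapping groups, and they were named with their values in view.

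Tenascin C (Tnc, ENSMUSG00000028364), a glycoprotein that counters adhesion to fibronectin, showed the highest log2 difference of the 10. The KO libraries 1 to 3 had 1.57, 1.15 and 1.91, against 0.622, 1.01 and 0.798 in WT 1, WT 2 and WT 3. The groups did not overlap, and KO 2 and WT 2 were the closest. Mean values were 1.54 ± 0.382 for KO and 0.811 ± 0.196 for WT (SD, n = 3 each), so KO held 190.2% of the level in WT. Tnc passed the filter, a mean of at least 1 over the 6 libraries, only through its KO values. Its log2 difference of 0.48 (SE 0.13, limma adjusted p 0.47) was 0.85 with a pseudocount of 0.1, since the larger pseudocount shrinks differences of low genes. After GC correction it was 0.40 and the groups overlapped. It was 0.39 in subset A and 0.69 in subset B. In the annotation 2.26% of the exonic bases of Tnc are shared with an antisense gene, 8030451A03Rik.

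Versican (Vcan, ENSMUSG00000021614), the large chondroitin sulfate proteoglycan that binds hyaluronan, had values of 15.1, 16.3 and 21.3 in KO and 15.4, 17.4 and 13.9 in WT. Only KO 3 exceeded every WT library, and the other KO libraries lay within the WT range. The log2 difference of 0.16 (SE 0.14, limma adjusted p 0.61) was 0.02 without KO 3 and 0.08 without WT 3. Next to Vcan on chromosome 13 lies Hapln1, which encodes the link protein that ties such proteoglycans to hyaluronan, and it lay on the other side. Hapln1 had 2.82, 2.38 and 2.25 in KO and 3.15, 3.66 and 3.35 in WT, without overlap, with a log2 difference of -0.33 (SE 0.09, limma adjusted p 0.47).

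Periostin (Postn, ENSMUSG00000027750), a matricellular protein that binds collagen and tenascin C, was set apart by 1 library. In the KO libraries 1 to 3 it had 8.61, 9.004 and 15.6, against 10.2, 9.20 and 10.5 in WT 1, WT 2 and WT 3. KO 3 was the highest of all and the other KO libraries were the lowest of all. The log2 difference was 0.09 (SE 0.20, limma adjusted p 0.84) and -0.16 without KO 3. It was -0.23 in subset A and 0.64 in subset B.

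SPARC (Sparc, ENSMUSG00000018593), a collagen-binding matricellular protein also called osteonectin, had 245, 251 and 280 in KO and 263, 249 and 253 in WT. The groups overlapped, and KO 3 was again the highest library. Mean values were 259 ± 18.4 for KO and 255 ± 7.43 for WT (SD, n = 3 each). The log2 difference was 0.02 (SE 0.08, limma adjusted p 0.93), and it was negative after scaling by median ratios (-0.01) or upper quartiles (-0.02), after GC correction (-0.07) and without KO 3 (-0.04).

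KO 3 was the highest library in Vcan, Tnc, Postn and Sparc. Some markers in 2 lists of neighbouring tissues were also highest in it. These were Tlx1 and Nkx2-5 of spleen and stomach, and Wt1 and Upk1b of the mesothelium. The other markers of these lists in the files were not. Sox2 and Cldn18 were highest in WT 1, Lrrn4 and Upk3b in WT 3, and Gkn1 and Msln in KO 2. Nkx2-5, which did not pass the filter on low values, had 0.408, 0.316 and 0.770 in KO and 0.031, 0.050 and 0.13 in WT. Upk1b had 4.725, 3.37 and 4.863 in KO and 3.995, 4.334 and 4.701 in WT. Nkx2-5, Upk1b, Cldn18 and Lrrn4 were named with their values in view. The spleen factor gene Tlx1 had 3.15, 2.41 and 8.71 in the KO libraries 1 to 3 and 2.53, 2.07 and 2.71 in the WT libraries. The sum of the 5 spleen and stomach markers was 3.66 to 10.6 in KO and 3.31 to 4.11 in WT, with Gkn1 at a mean under 0.1. Without Tlx1 that sum was 1.58, 1.26 and 1.92 in KO and 1.58, 1.24 and 1.10 in WT. Wt1, a factor of the mesothelium, was 14.6, 10.7 and 25.1 in KO and 13.2, 15.4 and 13.48 in WT. The sum of 5 of 6 mesothelium markers in the files was 27.9 to 47.2 in KO and 33.5 to 37.2 in WT, with Msln at a mean under 0.1. Without Wt1 the sum was 21.5, 17.2 and 22.1 in KO and 20.3, 19.9 and 23.7 in WT, so the other mesothelium markers were not highest in KO 3 as a sum. Among them Upk3b had 9.97, 7.38 and 9.69 in KO and 9.52, 8.29 and 11.3 in WT. These sums without 1 gene were added with the values in view. The part of such markers in the values of KO 3 was not tested. In whole tissue, fewer cells of a type and less RNA per cell cannot be told apart.

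**Figure D3:**
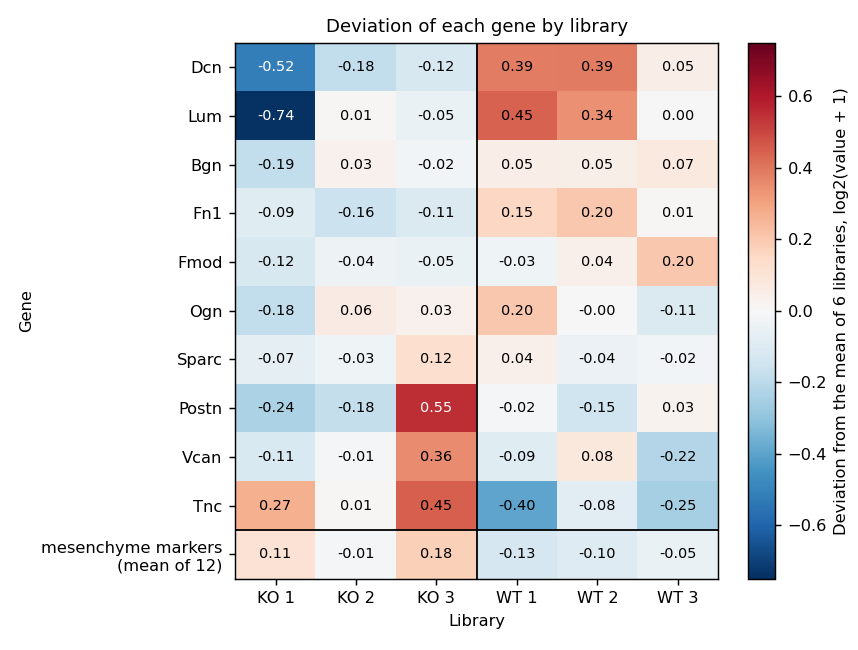
Deviation of each gene from its own mean over 6 libraries on the log2(value + 1) scale (colour and printed number), with KO libraries left of the line and WT libraries right of it, and the mean of 12 tested mesenchyme markers in the bottom row. Dcn and Lum are lowest in KO 1 (-0.52 and -0.74), Postn, Tnc and Vcan are highest in KO 3 (0.55, 0.45 and 0.36), and the mesenchyme markers run from -0.13 in WT 1 to 0.18 in KO 3.

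Dcn, Lum and Fn1 can be set beside the markers of the mesenchyme and of other cell types in the tissue. Of 12 tested mesenchyme markers 5 had a lower mean in KO, beside 46.5% of all genes. None of them passed limma over all genes, and their median log2 difference was 0.05. At an unadjusted p of 0.05 by limma, 4 of the 12 were higher in KO and 0 lower, beside 5.89% and 4.36% of all genes. These were Nkx3-2 (log2 difference 0.75), Barx1 (0.77), Tcf21 (0.56) and Pdgfrb (0.31), named here with their values in view, and Nkx3-2 passed the filter only through its KO values. After GC correction these were 0.45, 0.48, 0.53 and 0.17, and of these 4 only Nkx3-2 was without overlap. Col1a1, also named with its values in view, went from -0.04 to -0.28, with KO under WT without overlap. Before that correction the groups were without overlap in 5 of the 12, beside 16.4% of all genes, with KO above in 3 and under in 2. Vim, the vimentin gene, had 260, 231 and 258 in KO and 232, 226 and 257 in WT. Prrx1, a mesenchymal homeobox gene, had 133, 137 and 135 in KO and 151, 175 and 142 in WT. It was 1 of the 2 markers with KO under WT before the correction. The sum of 8 of 8 endothelial markers was 101 to 124 in KO and 86.4 to 91.8 in WT, and Pecam1 had 40.8, 43.4 and 54.1 in KO and 35.7, 34.9 and 36.8 in WT. At an unadjusted p of 0.05 by limma, 5 of these 8 were higher in KO, beside 5.89% of all genes. The KO libraries were above the WT libraries without overlap in 5, beside 7.67% of all genes. After GC correction Pecam1, Cdh5 and Esam stayed without overlap, while Tie1 (log2 difference 0.15) and Cldn5 (0.06) overlapped. Esam, Tie1 and Cldn5 were named with their values in view. Before the correction the median log2 difference of the 8 was 0.32, and 1 had a lower mean in KO, beside 46.5% of all genes. None of the 8 passed limma over all genes. The sum of 8 of 8 pericyte and smooth muscle markers was 58.1 to 67.7 in KO and 61.5 to 63.8 in WT, with Cnn1 at a mean under 0.1. The sum of 7 of 7 leukocyte markers was 21.9 to 29.3 in KO and 20.3 to 24.5 in WT, that of 6 of 6 erythroid markers 1117 to 1910 in KO and 905 to 1678 in WT, and that of 7 of 7 neural crest and glia markers 24.2 to 29.3 in KO and 26.9 to 28.8 in WT. At an unadjusted p of 0.05 by limma, 2 of 10 pancreatic epithelium markers were lower in KO and 0 higher. These were Neurog3 (log2 difference -0.59) and Ptf1a (-0.33), named with their values in view. Of 6 tested leukocyte markers, 2 were higher in KO at that p and 0 lower. Among all genes, 4.36% were lower and 5.89% higher. The part of all these markers in the differences of the 10 genes was not tested.

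Among themselves, the 10 genes did not form 1 pattern. Of the 45 pairs, 32 had a positive and 13 a negative Pearson's r over the 6 libraries, from -0.71 for Dcn with Tnc to 0.95 for Dcn with Lum, with a median of 0.28. Postn and Sparc (0.94), Bgn and Lum (0.89) and Dcn and Fn1 (0.87) were the other pairs above 0.8. Among genes with a symbol, which leaves out 526 of those tested, the genes most like the mean deviation of the 10 over the 6 libraries were Camk2n1 (r of 0.994), Dusp22 (0.993), Slc30a4 (0.986), Rpp40 (0.982) and Fam76a (0.979). Of 13901 other genes tested, 149 had an r above 0.9. The values of Camk2n1 were 5.03, 5.65 and 6.17 in KO and 6.05, 6.11 and 5.74 in WT. These r values are descriptions and carry no p.

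The genes that act with the 10 were taken from 6 lists, and in none of them did a member pass limma at an adjusted p of 0.05 (at an unadjusted p of 0.05, 15 of the 94 tested did, beside 10.3% of all genes). Of the other leucine-rich proteoglycan genes only Tsku and Aspn of 12 passed the filter, and the other 10 had means from 0.018 (Omd) to 0.94 (Podn). Tsku, which encodes tsukushi, a secreted inhibitor of BMP and Wnt signals, had 12.5, 12.7 and 11.7 in KO and 9.22, 9.95 and 12.6 in WT, with a log2 difference of 0.21 (SE 0.11).

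Among 9 tested genes of hyaluronan and its aggregates the mean in KO was higher in 4 and lower in 5, beside 53.5% and 46.5% of all genes. Their median log2 difference was -0.10. The KO libraries were under the WT libraries without overlap in 2 of the 9, beside 8.77% of all genes in that direction. These were Hapln1 and Lyve1, a hyaluronan receptor of lymphatic endothelium and some macrophages. Lyve1 had 7.63, 7.68 and 8.33 in KO and 10.8, 12.6 and 8.92 in WT, with a log2 difference of -0.40 (SE 0.12, limma adjusted p 0.47). For Hapln1 the groups overlapped after GC correction. Hyal1, a hyaluronidase gene, had 243, 349 and 287 in KO and 228, 263 and 240 in WT, with overlapping groups and a log2 difference of 0.25 (SE 0.13).

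Enzymes that build the chondroitin and dermatan sulfate chains of decorin, biglycan and versican were higher on average in KO in 16 of 19 tested genes, beside 53.5% of all genes. After GC correction the mean was higher in KO in 13 of the 19. The median log2 difference of the list was 0.11, beside 0.01 over all genes, and 0.06 after that correction. The groups were without overlap in 3 of the 19 (15.8%), beside 16.4% of all genes, each time with KO above, and in 0 of them after GC correction. Chpf2, a chondroitin polymerizing factor, had 32.5, 35.6 and 31.7 in KO and 22.8, 25.95 and 29.5 in WT, with a log2 difference of 0.34 (SE 0.10, limma adjusted p 0.47), which was 0.12 after GC correction. Xylt1 and Xylt2 encode the xylosyltransferases that start such chains. Xylt1 had 1.16, 1.94 and 1.07 in KO and 0.622, 1.01 and 0.922 in WT, with a log2 difference of 0.36 (SE 0.15). It is among the 16 and the 3 counted above but, with a WT mean of 0.85, passed the filter only through its KO values. Xylt2 had 3.47, 4.39 and 2.74 in KO and 2.35, 1.99 and 2.93 in WT, with 0.40 (SE 0.16), which was 0.14 after GC correction. The median of the list was 0.08 in subset A and 0.22 in subset B.

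Among 35 tested genes of other interstitial glycoproteins the mean was higher in KO in 27, beside 53.5% of all genes, and the median log2 difference was 0.09. After GC correction the mean was higher in 23 of the 35, and the median was 0.06. Without that correction the median was 0.05 in subset A and 0.21 in subset B. The groups were without overlap in 4 of the 35 (11.4%), beside 16.4% of all genes, with KO above in 2 and under in 2. Ltbp4, which encodes a protein that holds latent TGF-beta in the matrix, averaged 4.81 ± 0.827 in the KO and 2.43 ± 1.14 in the WT libraries (SD, n = 3 each), with WT 3 at 3.74 close to KO 3 at 3.96. Its log2 difference was 0.80 (SE 0.22, limma adjusted p 0.47), and 0.52 after GC correction. Emilin1, an elastic fibre gene, had 20.1, 21.9 and 15.9 in KO and 6.98, 7.81 and 16.4 in WT, so WT 3 lay among the KO libraries. Its log2 difference was 0.91 (SE 0.28, limma adjusted p 0.47). After GC correction it was 0.65, and the KO libraries were above the WT libraries without overlap. Spon1, which encodes F-spondin, had 9.004, 11.1 and 9.11 in KO and 12.1, 12.1 and 11.5 in WT, with a log2 difference of -0.27 (SE 0.09, limma adjusted p 0.47).

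Among 17 tested receptors the mean was higher in KO in 11, beside 53.5% of all genes, and in 9 after GC correction. The median log2 difference was 0.11, and 0.04 after that correction. The groups were without overlap in 3 of the 17 (17.7%), beside 16.4% of all genes, each time with KO above. Cd47, a receptor of thrombospondins, had 11.3, 10.9 and 13.51 in KO and 17.3, 16.3 and 12.3 in WT, with a log2 difference of -0.33 (SE 0.14). Among 12 tested genes of proteoglycan and glycoprotein processing the mean was higher in KO in 8, beside 53.5% of all genes, and in 7 after GC correction. The median log2 difference was 0.17, and 0.02 after that correction. The KO libraries were above the WT libraries without overlap in 3 of the 12, Bmp1, Mmp2 and Mmp14, beside 7.67% of all genes in that direction, and in none of these after GC correction. Bmp1, the protease that trims the propeptide of biglycan and other matrix proteins, had 9.24, 10.9 and 9.82 in KO and 7.44, 7.95 and 8.82 in WT, with a log2 difference of 0.28 (SE 0.09, limma adjusted p 0.47). Mmp2, a gelatinase gene, had 30.5, 27.3 and 34.0 in KO and 25.7, 25.7 and 27.3 in WT. Mmp14, which encodes the membrane protease that activates MMP2, had 24.4, 27.7 and 28.9 in KO and 20.3, 22.5 and 22.0 in WT. The median of the processing list was 0.02 in subset A and 0.21 in subset B.

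**Figure D4:**
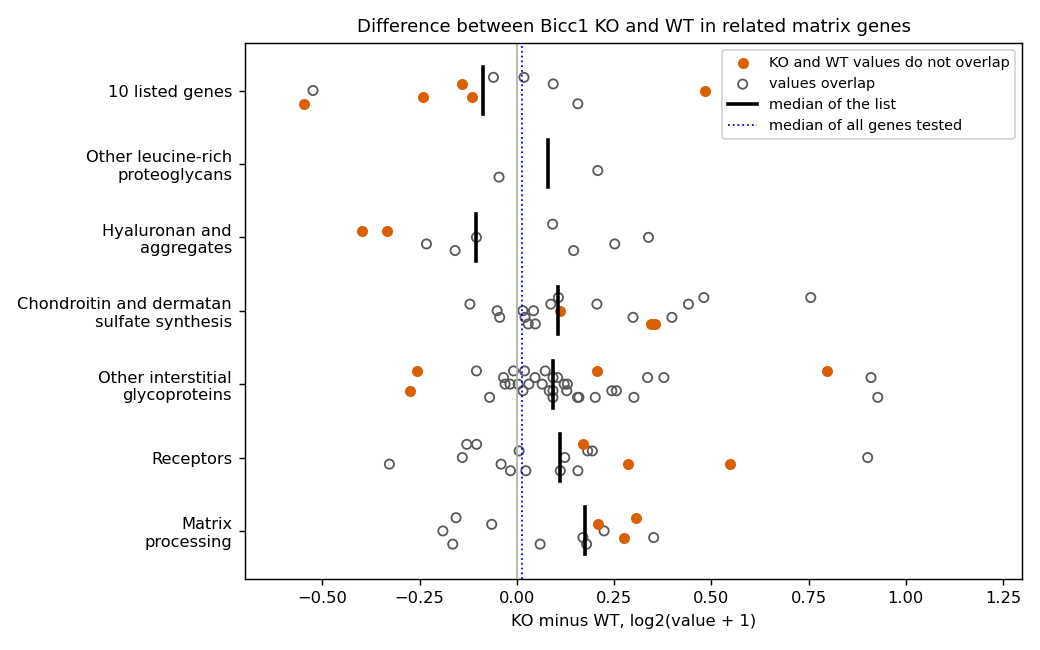
Difference between KO and WT on the log2(value + 1) scale (x axis) of each tested gene in the 10 listed genes and in 6 lists of genes that act with them (y axis), with filled points where KO and WT values do not overlap. Thick lines are the medians of the lists, from -0.10 for hyaluronan and aggregates to 0.17 for matrix processing, and the dotted line is the median of all 13911 genes tested, 0.01.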

How the data were processed

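Per the labels' protocols and design text, RNA of E13.5 dorsal pancreata was extracted with a column kit, and 500 ng went into each TruSeq RNA v2 library, sequenced on an Illumina HiSeq instrument. The submitters' processing notes name CASAVA 1.82, Bowtie 0.12.7 and the build mm9, and no source used here gives the counting or the normalization. In each deposited file there is 1 non-negative signal value per gene and library, with a floor of 0.01. No unit stands in the file headers, and depth is unknown, so no counting interval is given.

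Symbols were found for 22624 of 24389 identifiers (92.8%). A filter kept the 13911 genes whose mean over the 6 libraries was 1 or more. For these, log2(value + 1) was fitted with limma 3.58.1 (R 4.3.3) with a mean-variance trend and genotype alone, p was two-sided and adjusted by Benjamini-Hochberg over the 13911 genes, and the threshold was 0.05. Because of the added 1, differences of low genes come out too small. An exact permutation test of 3 against 3 cannot give a p under 0.1. A count test, provided for in the plan had the files held counts, was not used. The listed genes and the lists were chosen with earlier results of these data known. Named genes are Bicc1, the 10 genes, in each list up to 3 with the lowest p, in marker lists the 2 with the highest mean (their values given where they bear on a result), and the 5 most like the mean profile. Apart from these, neighbours on a chromosome were named for their position, and genes named for a mean under 0.1 or at the end of a range were picked with their values in view. The fit was first tested on simulated data. The GC correction was a loess fit per library with a span of 0.3. Figures were made with Python 3.11.15 and matplotlib 3.10.9.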

Additional observations from a re-analysis of the deposited data

How the results depend on the processing

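Alternatives were scalings, filters, a pseudocount of 0.1, robust moderation, the component subset as a term, GC correction, the replicate block and leaving out each library. None of the 10 genes passed the threshold under any of the 17 alternatives. Dcn, Bgn, Lum, Fmod, Vcan, Fn1 and Tnc kept their direction in all 17. The log2 difference of Ogn was 0.049 after GC correction, with and without the replicate block, and between -0.131 and 0.027 when single libraries were left out. That of Sparc was -0.010 after median ratio scaling, -0.019 after upper quartile scaling, -0.068 after GC correction with and without the block, and -0.039 to 0.056 with single libraries left out. That of Postn ranged from -0.16, without KO 3, to 0.23. The median of the 10 genes was between -0.14 and -0.017 with single libraries left out (-0.017 without KO 1), and the number of genes without overlap was 4 to 6. In the 6 lists 0 genes passed in every alternative. The count of all genes past the threshold was 2, against 1 with no filter, 4 after GC correction, 1 after GC correction with the replicate block and 0 with the replicate block alone (Bicc1 adjusted p 0.088 by limma, 656 genes at an unadjusted p of 0.05), and 1 to 8 with single libraries left out (8 without KO 2, and 1 without KO 1, KO 3, WT 1 or WT 3). Deviations of same-numbered KO and WT libraries from their group means correlated at -0.22, -0.40 and -0.64. With 3 libraries per group and a large first component, these values cannot show whether the replicate numbers pair the libraries. The cause of these shifts was not tested. Scaling moved the median of all genes by less than 0.1. DESeq2 was not run, since the files hold no counts. Depth is unknown, so what it limits cannot be given.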
